A study of Mus musculus with 12 samples.

Results

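Perineuronal nets are lattices of extracellular matrix around the soma and proximal dendrites of certain neurons, in the cortex mainly parvalbumin-positive interneurons and in the cerebellum mainly neurons of the deep nuclei. Lecticans, which are chondroitin sulfate proteoglycans, bind chains of hyaluronan, link proteins lock the lecticans onto the hyaluronan, and tenascin-R cross-links the lecticans. The same protein families also build the looser matrix of the neuropil and, at nodes of Ranvier, the matrix along myelinated axons. In the cortex of SCA1 KI mice, the link proteins Hapln4 and Hapln1, the lecticans Ncan and Vcan, and Ptprz1 were lower than in WT mice. In the cerebellum, Hapln4, Hapln1 and Acan were lower. The calls of Ncan and Vcan in the cortex and of Hapln1 in the cerebellum were lost in some alternative fits. The cerebellar groups also differed in markers of thalamus and midbrain, and the part of this in the cerebellar values was not tested.

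The 10 genes described here are 3 link proteins (Hapln1, Hapln2 and Hapln4), the 4 lecticans (Acan, Bcan, Ncan and Vcan), the tenascins Tnr and Tnc, and Ptprz1, a receptor tyrosine phosphatase whose secreted form, phosphacan, is a further chondroitin sulfate proteoglycan of the nets. They were chosen by gene symbol from the 15759 entries of the table of normalized counts, with no limit on a measured value, but after the differences between SCA1 KI and WT in both regions had been seen. All 10 had a mean of at least 10 normalized counts and are among the 15369 genes tested. Because of that choice, the adjusted p of these genes describe where each stands among all genes and are no evidence about the family.

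The mice were C57BL/6J and 12 weeks of age. SCA1 KI mice (Atxn1 154Q/2Q) express ataxin-1 with 154 glutamines from the endogenous locus on 1 allele and with 2 on the other, and wild-type (WT) littermates served as controls. Whole cortex and whole cerebellum were macrodissected, and poly-adenylated RNA was sequenced in 3 libraries for each combination of region and genotype, 12 in all. Libraries are named here by the letters (cortex) and numbers (cerebellum) that the deposited columns carry. The labels list males and the methods describe both sexes. The model expresses mutant ataxin-1 wherever Atxn1 is active, and a tissue library mixes all cells of a region, so fewer cells of a type and less RNA per cell cannot be told apart.

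Reads on genes numbered 34103546 to 39927889 in the cortex libraries and 29520855 to 51311309 in the cerebellum libraries. As a check of the labelled tissue, Pcp2, a Purkinje cell gene, had 7439 to 10742 normalized counts in the cerebellum libraries, 28.5 in WT cortex library D and 1.19 or less in the other cortex libraries. Library D was also highest of the cortex libraries in the granule cell genes Cbln3 (108, others 19.7 or less) and Gabra6 (42.1, others 3.04 or less). It was not the highest in the other granule cell genes listed. Neurod1 had 822 in library D and 970 in SCA1 KI library A, and Zic1 had 492 in library D and 1001 in SCA1 KI library F. Atxn1 had LFCs of −0.31 for cortex (adjusted p = 0.132, limma) and 0.08 in the cerebellum (adjusted p = 0.837, limma), and its counts do not read the repeat length. LFC is the difference between the group means of log2(normalized count + 1), SCA1 KI minus WT. A gene was counted as lower or higher at a Benjamini-Hochberg adjusted p under 0.05 over all 15369 genes together with an absolute LFC over 0.25. These limits were passed by 5 of the 10 genes in the cortex, against 15.6% of all genes tested, and by 3 of the 10 in the cerebellum, against 5.36% of all genes. All 8 calls were in the lower direction, as were 69.2% of the calls among all genes in the cortex and 82.9% in the cerebellum. The median LFC of the 10 genes was −0.37 in the cortex and −0.17 in the cerebellum, where the medians of all genes were −0.0028 and −0.0049. With results known at the choice of the genes, nothing is read from these shares.

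**Figure D1:**
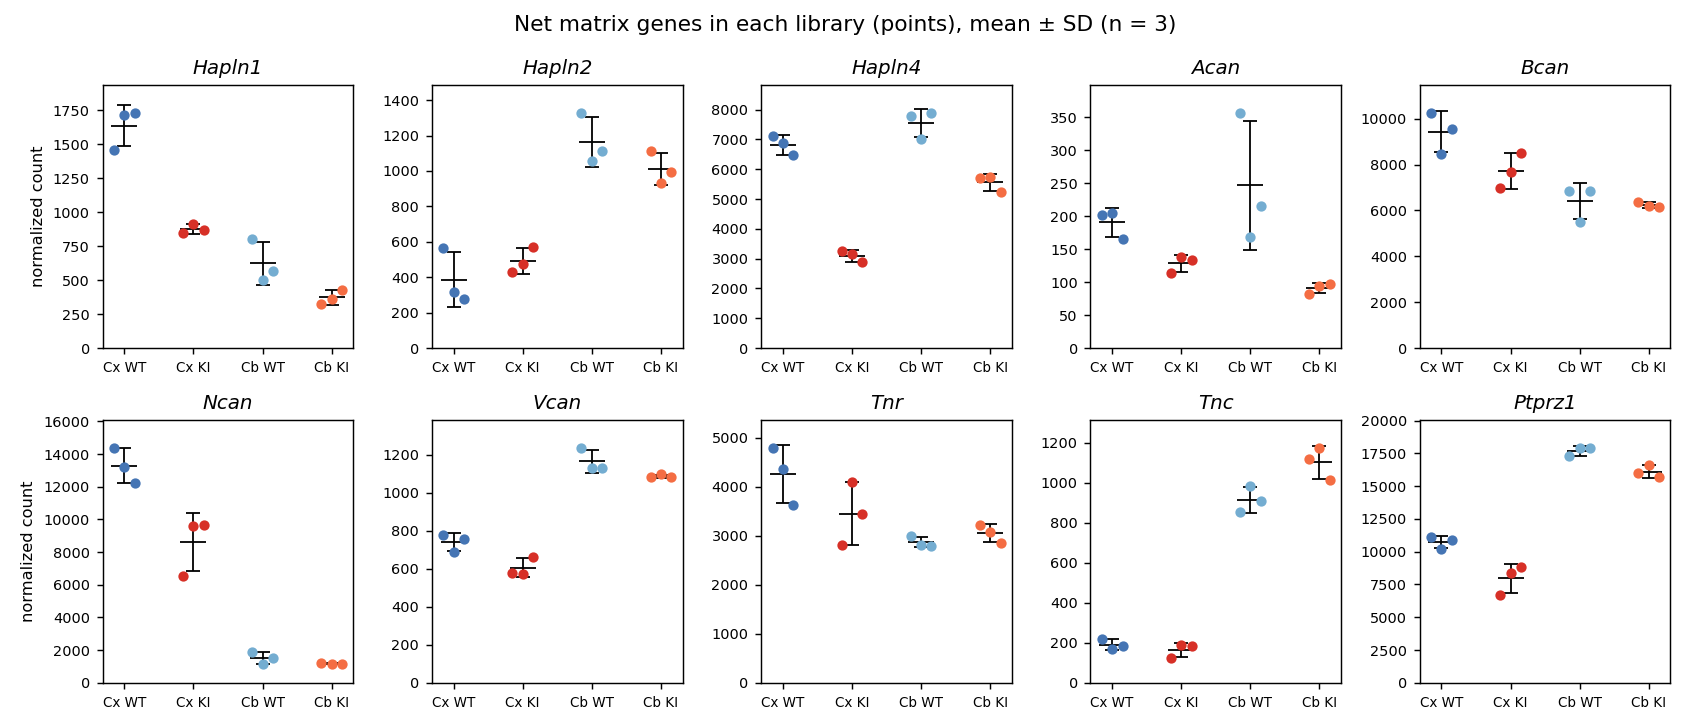
Normalized count (vertical axes, each from 0) of the 10 matrix genes in each of the 12 libraries (points), with the mean and SD of the 3 libraries of a group. Cx is cortex, Cb cerebellum and KI SCA1 KI, and libraries stand in the order B, C, D, A, E, F, 2, 4, 6, 1, 3, 5. Hapln4 and Hapln1 are lower in every KI library than in every WT library of the same region.

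The genes of link proteins and lecticans lie beside each other in the mouse genome. In GENCODE vM21 (GRCm38), Hapln1 (chromosome 13, 89539796 to 89611652, plus strand) is followed by Vcan (89655312 to 89742509, minus strand) after a gap of 43659 bp. Hapln4 (chromosome 8, 70083457 to 70090862, plus strand) and Ncan (70093085 to 70120873, minus strand) are 2222 bp apart. Bcan (chromosome 3, 87987531 to 88000230) and Hapln2 (88021750 to 88027583) are both on the minus strand with 21519 bp between them. Acan (chromosome 7, 79053483 to 79115099, plus strand) ends 2 bp before the remaining link protein, Hapln3 (79115102 to 79131018, minus strand), which is no member of the group. In each pair no other protein-coding gene lies in the gap, and in the 3 pairs other than Bcan and Hapln2 the genes point towards each other. Tnr (chromosome 1, 159523769 to 159931729, plus strand) shares 443 exonic bases with the antisense entry Gm38039, Tnc (chromosome 4, 63959785 to 64047015, minus strand) shares 176 with the antisense entry 8030451A03Rik, and the other members share none with any gene. As the strand setting of the counting and its handling of overlapping genes were not stated, how reads of these overlaps were counted is not known. Ptprz1 lies on chromosome 6 from 22875502 to 23052916 (plus strand).

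Promoter windows of RefSeq (GRCm38.p6, 250 bases before to 50 bases after the start) were at hand for 9 of the 10 genes, all but Hapln4. They are shown for Acan, Vcan and Ptprz1, 3 genes that were lower in a region of SCA1 KI mice and whose 250 bases before the start lie outside annotated exons, to set their base composition side by side, with each CG dinucleotide in capitals. They hold 26, 10 and 22 CG dinucleotides, against a median of 6 over all 32851 windows.

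Acan promoter (chr7:79052976-79053225, plus strand): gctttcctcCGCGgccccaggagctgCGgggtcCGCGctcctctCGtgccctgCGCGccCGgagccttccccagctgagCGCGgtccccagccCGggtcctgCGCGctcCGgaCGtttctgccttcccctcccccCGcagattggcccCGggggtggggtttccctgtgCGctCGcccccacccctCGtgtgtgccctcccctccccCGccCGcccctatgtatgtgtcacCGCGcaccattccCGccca

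Vcan promoter (chr13:89742513-89742762, minus strand): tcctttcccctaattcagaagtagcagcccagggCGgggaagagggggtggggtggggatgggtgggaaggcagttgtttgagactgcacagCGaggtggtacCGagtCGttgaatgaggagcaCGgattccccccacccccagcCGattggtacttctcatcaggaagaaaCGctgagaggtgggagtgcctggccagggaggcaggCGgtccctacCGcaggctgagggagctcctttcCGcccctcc

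Ptprz1 promoter (chr6:22875252-22875501, plus strand): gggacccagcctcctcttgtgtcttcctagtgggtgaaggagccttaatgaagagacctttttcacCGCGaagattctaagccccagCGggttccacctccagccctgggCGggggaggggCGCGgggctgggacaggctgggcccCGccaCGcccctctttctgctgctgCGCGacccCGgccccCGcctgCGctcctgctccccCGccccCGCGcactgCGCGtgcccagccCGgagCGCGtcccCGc

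Capicua is a repressor that binds ataxin-1. Its octamers, written as TGAATGAA and TGAATGGA and TCAATGAA and TCAATGGA and searched on both strands, occurred in the 300-base windows of 0 of the 9 genes, and in 3.84% of all windows. Hapln1, Hapln2 and Tnr had 2 CG dinucleotides each in the 250 bases before the start, Ncan had 6 and Bcan 16. All 250 of these bases of Hapln1 lie in annotated exons. No match says only that the letters are not in this window.

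Levels of different genes were compared per kb of exon, taking the union of all annotated exons of a gene as its length. In the WT cortex the brain-specific lectican Bcan was highest, at 2319 ± 220 normalized counts per kb (SD, n = 3), followed by Ncan at 1845 ± 149 and Hapln4 at 1738 ± 84.6, whose libraries overlapped. Ptprz1 stood at 754 ± 32.8, Tnr at 332 ± 45.5 and Hapln1 at 277 ± 25.6, with overlap between the libraries of Tnr and Hapln1. Hapln2, the link protein of oligodendrocytes, was at 163 ± 65.4 and Vcan at 51.2 ± 3.30. Acan, the lectican that typifies perineuronal nets, was at 25.5 ± 2.97 and Tnc at 24.6 ± 3.44, and these lowest genes did not differ beyond their spread. Lengths from all annotated exons understate genes with long unused exons, such as Ptprz1, whose exon union of 14245 bp exceeds its longest transcript of 8068 bp.

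In the WT cerebellum Hapln4 came first by this length at 1925 ± 120 normalized counts per kb (SD, n = 3). Bcan followed at 1578 ± 190 and Ptprz1 at 1242 ± 26.4, with no overlap between these neighbours. As the exon union of Ptprz1 (14245 bp) exceeds its longest transcript (8068 bp), its place below Hapln4 and Bcan depends on the length used. Hapln2 was at 491 ± 60.5. Tnr (223 ± 8.03) and Ncan (212 ± 53.1) overlapped, as did Tnc (118 ± 8.40) and Hapln1 (106 ± 26.8), and Hapln1 and Vcan (80.7 ± 4.16). Acan was lowest at 33.0 ± 13.1.

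Between the regions of WT mice, 8 of the 10 genes passed the limits, against 61.7% of all genes. Ncan was higher in the cortex by 3.15 on the log2 scale (standard error 0.17), and Hapln1 by 1.41, Tnr and Bcan by 0.56 each. Tnc, the tenascin of astrocytes including the Bergmann glia of the cerebellum, was lower in the cortex than in the cerebellum by an LFC of −2.26 (standard error 0.15), Hapln2 by −1.65, Ptprz1 by −0.72 and Vcan by −0.66. Hapln4 (LFC −0.15, adjusted p = 0.0740, limma) and Acan (LFC −0.31, adjusted p = 0.232, limma) did not pass, with intervals (95%) of −0.29 to 0.0014 and −0.78 to 0.17. The LFC of Acan rested on single cerebellar libraries, being −0.0064 without WT library 2 and −0.54 without WT library 4 (adjusted p = 0.0330, passed). The cerebellar libraries come from an earlier experiment of the same laboratory, so region and experiment cannot be told apart.

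**Figure D2:**
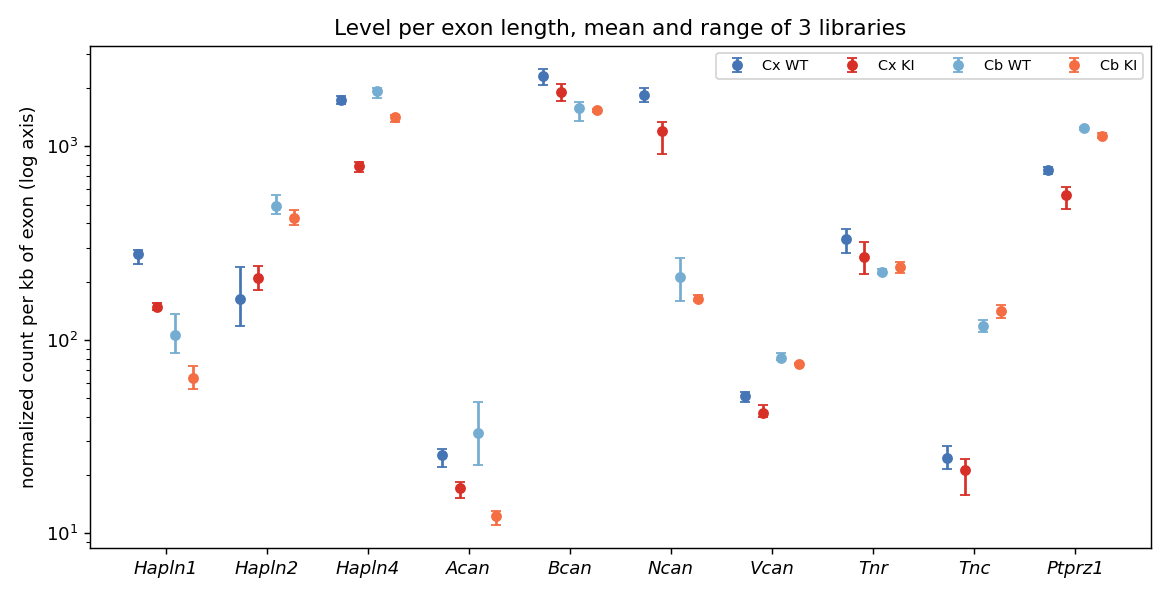
Normalized count per kb of exon (log axis) of the 10 genes in the 4 groups, as the mean (point) and range (bar) of 3 libraries, with Cx for cortex and Cb for cerebellum. In WT mice, by the union of annotated exons, Bcan is highest in the cortex (mean 2319) and Hapln4 in the cerebellum (mean 1925). This length understates Ptprz1. Acan reaches at most 47.7 in any library.

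Hapln4, the link protein also called Bral2, which stabilizes nets around cerebellar nuclear neurons and their inhibitory inputs, had 7119, 6880 and 6463 normalized counts in WT cortex libraries B, C and D and 3262, 3143 and 2880 in SCA1 KI libraries A, E and F. Every SCA1 KI library was thus below every WT library by a wide margin. The LFC was −1.14 (standard error 0.068, adjusted p = 2.10e-06, limma), and it lay between −1.18 and −1.09 with each library left out in turn. In the cerebellum Hapln4 had 7771, 7012 and 7880 in WT libraries 2, 4 and 6 and 5703, 5728 and 5240 in SCA1 KI libraries 1, 3 and 5. Again no library overlapped between the genotypes, and the LFC was −0.44 (standard error 0.068, adjusted p = 0.00219, limma). The fall was larger in the cortex, with a difference between the LFCs of −0.70 (standard error 0.097, adjusted p = 0.00112, limma), which made Hapln4 the 1 gene of the 10 with an interaction, where 8.15% of all genes had one.

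Hapln1, the link protein of aggrecan-rich nets, had 1462, 1716 and 1729 normalized counts in WT cortex libraries and 846, 913 and 872 in those of SCA1 KI mice (libraries in the order given for Hapln4). The SCA1 KI libraries lay close together below all WT libraries, an LFC of −0.90 (standard error 0.15, adjusted p = 0.00140, limma). In the cerebellum it had 803, 502 and 567 in WT and 328, 361 and 430 in SCA1 KI libraries. The groups did not overlap there either, but WT library 2 stood above the other 5 libraries. The cerebellar LFC of −0.72 (standard error 0.15, adjusted p = 0.0141, limma) lost its call without SCA1 KI library 1 (adjusted p = 0.0740), without SCA1 KI library 3 (adjusted p = 0.0575) and with the cerebellum fitted on its own (adjusted p = 0.0601), and the LFC was −0.53 without WT library 2, where it passed. The difference between the LFCs of the regions was −0.17, with an interval (95%) of −0.64 to 0.29.

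Hapln2, the link protein at nodes of Ranvier, passed in neither region. It had 564, 316 and 280 normalized counts in WT cortex libraries and 430, 476 and 573 in those of SCA1 KI mice, with WT library B among the SCA1 KI values. Its LFC was 0.41 (standard error 0.21, adjusted p = 0.211, limma), and without WT library B it was 0.72 and passed (adjusted p = 0.00509). Library B also had the highest summed level of 10 markers of mature oligodendrocytes, at 144790 normalized counts against 85833 to 106050 in the other cortex libraries, of 4 striatal genes (8138 against 3589 to 5440) and of 5 choroid plexus genes (1668 against 193 to 307), and the part of these tissues in the value of Hapln2 was not tested. In the cerebellum Hapln2 had 1327, 1055 and 1110 in WT and 1111, 932 and 994 in SCA1 KI libraries, an LFC of −0.20 that did not pass (adjusted p = 0.720, limma).

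Summed per kb, the 3 link proteins came to 2178 ± 121 in WT cortex libraries and 1145 ± 18.9 in those of SCA1 KI mice (SD, n = 3 each). Within this sum the share of Hapln4 was 79.8% ± 0.845 in WT and 68.8% ± 3.32 in SCA1 KI libraries, that of Hapln2 was 7.40% ± 2.56 and 18.2% ± 3.01, and that of Hapln1 was 12.79% ± 1.80 and 12.98% ± 0.514. The share of Hapln2 was larger in each SCA1 KI library (15.7% or more) than in each WT library (10.4% or less). As most of the sum is Hapln4, this share rises when Hapln4 falls. Hapln2 itself was at 163 ± 65.4 per kb in WT and 208 ± 30.9 in SCA1 KI cortex libraries, which overlapped. In the cerebellum the sum was 2522 ± 185 in WT and 1907 ± 75.3 in SCA1 KI libraries, and the share of Hapln4 was 76.4% ± 2.12 and 74.3% ± 1.73.

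Acan encodes aggrecan, the core proteoglycan of the nets. In the cerebellum it had 356, 169 and 215 normalized counts in WT libraries 2, 4 and 6 and 82.6, 94.1 and 97.8 in SCA1 KI libraries. All SCA1 KI libraries lay below the lowest WT library, and WT library 2 stood far above the other WT libraries. The LFC was −1.35 (standard error 0.22, adjusted p = 0.00296, limma), the largest fall among the 10 genes in that region. Without WT library 2 it was −1.06 and still passed (adjusted p = 0.00284). In the cortex Acan had 202, 205 and 165 in WT and 114, 138 and 133 in SCA1 KI libraries, which did not overlap. The cortical LFC of −0.56 (standard error 0.22) did not pass (adjusted p = 0.0977, limma), but did with the cortex fitted on its own (adjusted p = 0.0436) and without cerebellar WT library 2 (adjusted p = 0.0172), whose spread enters the shared error. The difference between the regions was 0.79 and did not pass (adjusted p = 0.156, limma), except without cerebellar WT library 4 (1.03, adjusted p = 0.0372).

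Ncan, neurocan, a lectican secreted by astrocytes and neurons, had 14380, 13213 and 12237 normalized counts in WT cortex libraries and 6556, 9605 and 9641 in those of SCA1 KI mice. The groups did not overlap, and SCA1 KI library A was far below the other SCA1 KI libraries. The LFC was −0.65 (standard error 0.17, adjusted p = 0.0195, limma). Its call was lost without SCA1 KI library A (LFC −0.46, adjusted p = 0.0690), WT library B (adjusted p = 0.0665) or WT library C (adjusted p = 0.0582). In the cerebellum Ncan had 1909, 1145 and 1532 in WT and 1223, 1143 and 1151 in SCA1 KI libraries, which overlapped, an LFC of −0.35 (adjusted p = 0.314, limma).

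Vcan, versican, made by oligodendrocyte precursors and others, had 780, 688 and 756 normalized counts in WT cortex libraries and 578, 575 and 665 in those of SCA1 KI mice, an LFC of −0.29 (standard error 0.078, adjusted p = 0.0215, limma). This small fall was lost in 6 of the 21 alternative fits, among them the fit corrected for transcript length and GC (LFC −0.14, adjusted p = 0.333) and that of the cortex alone (adjusted p = 0.110). Bcan, brevican, the most abundant lectican, had 10245, 8470 and 9559 in WT cortex libraries and 6980, 7659 and 8525 in those of SCA1 KI mice. The highest SCA1 KI library lay just above the lowest WT library, and the LFC of −0.29 (standard error 0.098) did not pass (adjusted p = 0.0612, limma). In the cerebellum Bcan (LFC −0.03, adjusted p = 0.913, limma) and Vcan (LFC −0.10, adjusted p = 0.580, limma) did not pass either, with intervals (95%) of −0.25 to 0.18 and −0.27 to 0.067.

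Per kb, the 4 lecticans summed to 4241 ± 318 in WT cortex libraries and 3154 ± 422 in those of SCA1 KI mice, where no library overlapped, and to 1904 ± 251 and 1785 ± 36.4 in the cerebellum, where they did (SD, n = 3 each). The share of Acan in this sum was 1.71% ± 0.502 in WT cerebellum libraries and 0.687% ± 0.0728 in those of SCA1 KI mice, against 0.603% ± 0.0766 and 0.547% ± 0.0328 in the cortex.

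Ptprz1 had 11092, 10206 and 10907 normalized counts in WT cortex libraries and 6730, 8384 and 8798 in those of SCA1 KI mice. Every SCA1 KI library was below every WT library, with library A the lowest, and the LFC was −0.44 (standard error 0.084, adjusted p = 0.00308, limma). In the cerebellum it had 17260, 17914 and 17907 in WT and 16015, 16632 and 15692 in SCA1 KI libraries. These did not overlap, but the LFC was only −0.14 (adjusted p = 0.462, limma).

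Tnr, tenascin-R, which oligodendrocytes and some interneurons secrete, had 4797, 4360 and 3639 normalized counts in WT cortex libraries and 2818, 4100 and 3455 in those of SCA1 KI mice. The groups overlapped, and the LFC of −0.31 (standard error 0.12) did not pass (adjusted p = 0.105, limma), but did without WT library D (adjusted p = 0.0385) or SCA1 KI library E (adjusted p = 0.0221). Tnc, tenascin-C, had 220, 167 and 186 in WT and 122, 187 and 184 in SCA1 KI cortex libraries, an LFC of −0.23 (adjusted p = 0.344, limma). Without SCA1 KI library A, the cortical LFC was −0.17 for Tnr and −0.0317 for Tnc. In the cerebellum neither passed, and the differences between the regions did not pass either (interaction, adjusted p = 0.203 for Tnr and 0.205 for Tnc, limma). Tnr had an LFC of 0.09 (adjusted p = 0.794, limma), and Tnc had 852, 982 and 909 in WT and 1118, 1174 and 1012 in SCA1 KI libraries, all SCA1 KI libraries being above all WT libraries, with an LFC of 0.27 that did not pass (adjusted p = 0.417, limma).

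The genotypes did not overlap in 6 of the 10 genes in the cortex (Hapln1, Hapln4, Acan, Ncan, Vcan and Ptprz1), as in 30.9% of all genes tested, and in 6 in the cerebellum (Hapln1, Hapln4, Acan, Vcan, Tnc and Ptprz1), as in 31.8% of all genes. Within the neighbouring pairs the cortical LFCs were −0.90 for Hapln1 and −0.29 for Vcan, −1.14 for Hapln4 and −0.65 for Ncan, and 0.41 for Hapln2 and −0.29 for Bcan. Hapln3, at a mean of 27.6 normalized counts in WT cortex libraries and 22.9 in those of SCA1 KI mice, had an LFC of −0.25 (adjusted p = 0.672, limma) beside −0.56 for Acan.

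**Figure D3:**
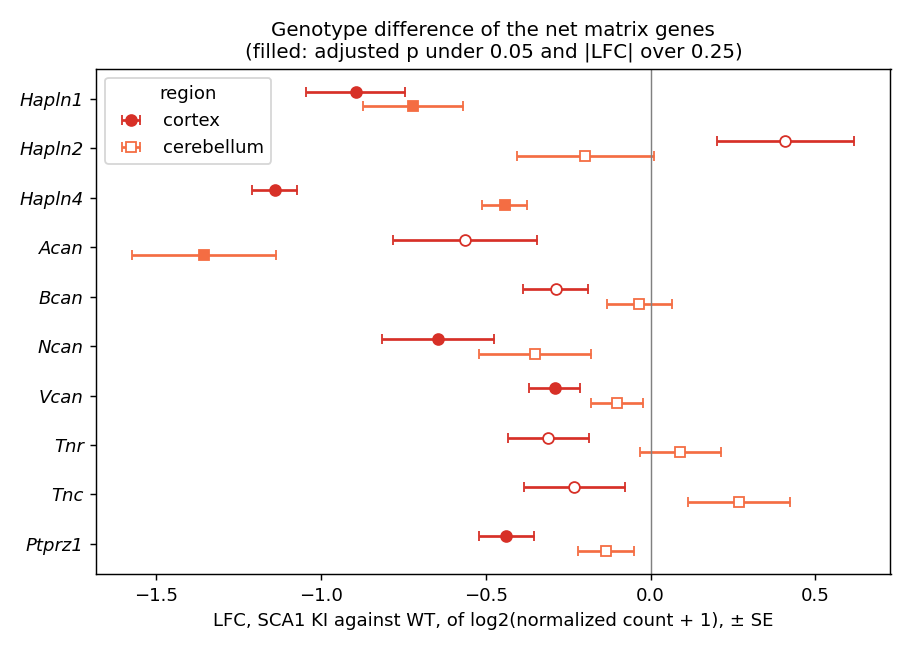
LFC of SCA1 KI against WT (horizontal axis, difference in mean log2(normalized count + 1)) with its standard error (bar) for the 10 genes in cortex (circles) and cerebellum (squares). Filled symbols mark the 5 genes in the cortex and 3 in the cerebellum that passed both limits, all to the left of 0, with Hapln4 at −1.14 in the cortex and Acan at −1.35 in the cerebellum.

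Several matrix genes are made by astrocytes, and astrocyte markers were lower in the SCA1 KI cortex. The summed level of 6 astrocyte markers was 255280 to 265120 normalized counts in WT cortex libraries and 123130, 187670 and 173540 in SCA1 KI libraries A, E and F. Most of this sum was Slc1a2 alone. It had 214850, 213583 and 199946 in WT libraries B, C and D and 89746, 147178 and 129954 in SCA1 KI libraries A, E and F. Each of the 6 markers was lowest in library A among the cortex libraries. Aqp4, Slc1a3, Slc1a2 and Aldh1l1 were lower in the cortex, where 15.6% of all genes were called. Gfap (LFC −0.37, adjusted p = 0.222, limma) and Gja1 (LFC −0.33, adjusted p = 0.0660, limma) did not pass, and no list member was at 0. Library A, the lowest in astrocyte markers, was also the lowest cortex library for Hapln1, Acan, Bcan, Ncan, Tnr, Tnc and Ptprz1, which is 7 of the 10 genes. The share of all genes lowest in library A was not determined. Library A was also lowest in the sums of inhibitory neurons, oligodendrocyte precursors, microglia and endothelium. It was not the lowest in those of mature oligodendrocytes and cortical excitatory neurons. In the cerebellum the astrocyte sum was 149250 to 161770 in WT and 131290 to 136680 in SCA1 KI libraries. Aldh1l1 was lower there, where 5.36% of all genes were called. Among 5 markers of oligodendrocyte precursors, Gpr17 and Neu4 were lower in the SCA1 KI cortex, against the same 15.6% of all genes. The sums were 5101 to 5836 in WT and 3718 to 4603 in SCA1 KI libraries. The part of these cells in the values of the matrix genes was not tested.

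Nets surround fast-spiking interneurons in the cortex, and of 9 genes of these and other inhibitory neurons 5 were lower in the SCA1 KI cortex, where 15.6% of all genes were called. They were Syt2 (LFC −0.91), Kcnc1 (−0.81), the calcium buffer Pvalb (−0.66), Erbb4 (−0.61) and Gad1 (−0.42). Gad2 (LFC −0.06, adjusted p = 0.816, limma), Slc32a1 (0.09, adjusted p = 0.649), Lhx6 (−0.29, adjusted p = 0.4997) and Kcnc2 (−0.24, adjusted p = 0.526) did not pass. The summed level was 48988 to 54098 normalized counts in WT cortex libraries and 35556 to 46950 in those of SCA1 KI mice, with no list member at 0. The sum of 6 genes of cortical excitatory neurons, of which Slc17a7 and Cux2 were lower, also did not overlap, with 83140 to 85146 in WT and 57034 to 67096 in SCA1 KI cortex libraries. In the cerebellum Kcnc2 was lower (LFC −2.19). It had 2191, 922 and 1510 normalized counts in WT libraries 2, 4 and 6 and 290 to 379 in SCA1 KI libraries. WT library 2 was the highest in Kcnc2, as in the thalamus and midbrain markers given below. The cerebellar sum was 99107 to 105860 in WT and 88783 to 90271 in SCA1 KI libraries, most of it from Gad1, Kcnc1, Pvalb and Syt2. Which cerebellar cells this sum reflects was not tested.

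Large neurons of the midbrain and brainstem also carry nets rich in aggrecan and Hapln1. Markers of thalamus and midbrain differed between the cerebellar groups, whereas 0 brainstem markers passed. The summed level of 7 genes of thalamus and midbrain was 3519, 2112 and 2881 normalized counts in WT cerebellum libraries 2, 4 and 6 and 489 to 570 in the SCA1 KI cerebellum. All 6 tested members were lower there, where 5.36% of all genes were called. The remaining member, Slc6a3, had a mean under 10 normalized counts. Shox2, a defining member, was at 119.7 or more in each WT cerebellum library, at 9.68 or less in each SCA1 KI one, and at 0 in every WT cortex library. WT library 2, the highest in these markers, was the highest cerebellar library for Acan, Hapln1, Hapln2, Bcan, Ncan and Vcan. For Bcan it barely exceeded WT library 6 (6863 against 6858). Hapln4, Ptprz1, Tnr and Tnc were highest in other cerebellar libraries, and the share of all genes highest in library 2 was not determined. Library 2 was also the highest for 8 brainstem genes, with a sum of 1853 against 718 to 936 in the other cerebellar libraries. In the cortex the thalamus and midbrain sum was 661.5 to 751 in WT and 1258 to 1805 in SCA1 KI libraries. Pou4f1, Tal1 and Shox2 were higher in the SCA1 KI cortex, where 15.6% of all genes were called. Tcf7l2 (LFC −0.03), Lef1 (LFC −0.25) and Gata3 (LFC 2.34, adjusted p = 0.122, limma) did not pass there. Hapln1, Hapln4 and Acan were lower in each SCA1 KI cortex library than in each WT one. The cortex groups did not overlap in 30.9% of all genes, and Acan did not pass there (adjusted p = 0.0977, limma). The part of tissue composition in these cortical values was not tested. Markers of mature oligodendrocytes summed to 189900 to 283500 in WT cerebellum libraries, highest in library 2, and 161400 to 162410 in those of SCA1 KI mice, with Mal and Opalin lower. The part of tissue composition in the cerebellar values of Acan and Hapln1 was not tested.

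**Figure D4:**
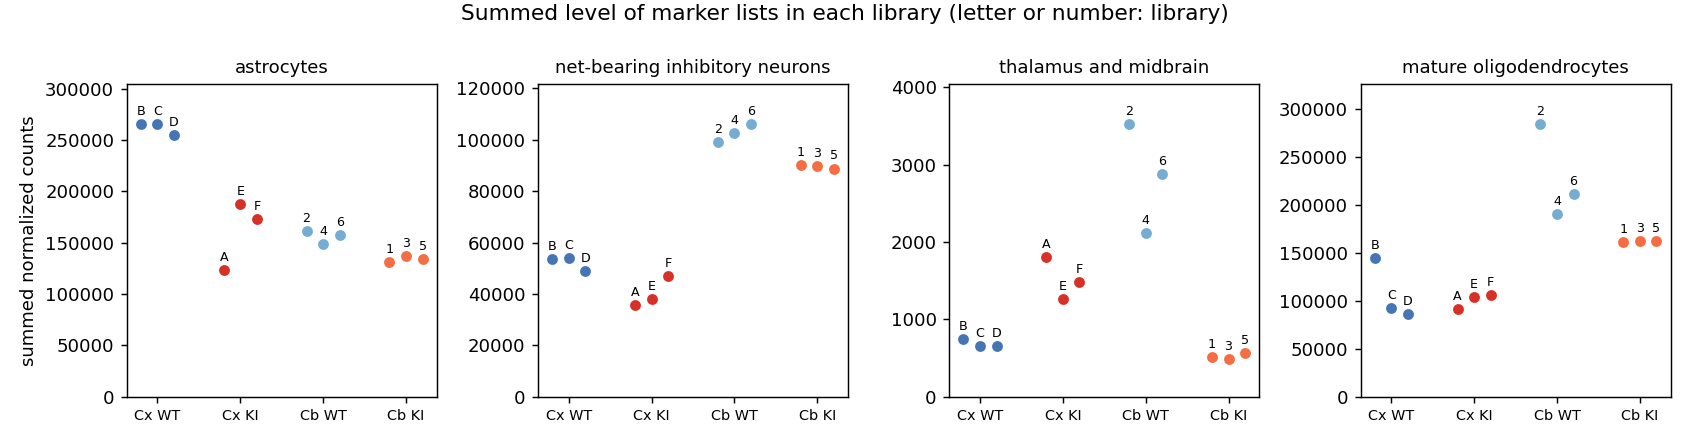
Summed normalized counts (vertical axes, each from 0) of 4 marker lists in each library, labelled with its letter or number, for cortex (Cx) and cerebellum (Cb) of WT and SCA1 KI (KI) mice. Astrocyte markers are lowest in cortex library A among the cortex libraries, and thalamus and midbrain markers lie between 2112 and 3519 in the WT cerebellum and between 489 and 570 in the KI cerebellum.

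Beside the core components, 63 symbols of genes that make, modify, cut or bind the matrix were listed, of which 59 were tested. In the cortex 13 were lower and 0 higher, which is 22% of them against 15.6% of all genes. In the cerebellum 3 were lower and 2 higher, 8.47% against 5.36% of all genes. Among the calls over all genes, 69.2% were lower in the cortex and 82.9% in the cerebellum. The cortical count was 8 without WT library C, and the cerebellar count was 2, 1 and 3 without SCA1 KI libraries 1, 3 and 5 and 8 without cortical SCA1 KI library A.

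Receptors and ligands of the matrix held the most calls. Of 11 genes, 6 were lower in the SCA1 KI cortex, where 15.6% of all genes were called. The median LFC was −0.40 over the list and −0.0028 over all genes. The list was chosen with earlier results known, so nothing is read from these counts. Rtn4r, the Nogo receptor, which also binds chondroitin sulfate, had 3875, 4445 and 4802 normalized counts in WT libraries B, C and D and 2465, 2431 and 1802 in SCA1 KI libraries A, E and F, an LFC of −0.98 (standard error 0.13, adjusted p = 2.63e-04, limma). Its relative Rtn4rl1 had an LFC of −0.71 (standard error 0.11). Both had LFCs near 0 in the cerebellum (0.17 and −0.04), and both differed between the regions (interaction, adjusted p = 0.00242 and 0.0229, limma). The receptor phosphatases that bind chondroitin sulfate, Ptprs (LFC −0.33) and Ptprf (−0.40), and the Ptprz1 ligands Ptn (−0.52) and Nrcam (−0.40) were lower as well. Cntn1, another Ptprz1 ligand, had an LFC of −0.0012 (adjusted p = 0.994, limma). In the cerebellum 1 of the 11 passed, where 5.36% of all genes did. It was Sema3a, a guidance cue that nets hold, which was higher (LFC 0.54, adjusted p = 0.0293, limma).

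Hyaluronan genes gave 2 lower calls among 9 tested in the cortex, where 15.6% of all genes were called. They were Cd44, the hyaluronan receptor (LFC −0.72, standard error 0.20), and Cemip, which takes part in hyaluronan breakdown. Cemip moved in opposite directions. It had 879, 928 and 847 normalized counts in WT and 688, 629 and 575 in SCA1 KI cortex libraries, and 1218, 1590 and 1475 in WT and 2446, 2173 and 2157 in SCA1 KI cerebellum libraries. The groups overlapped in neither region, with LFCs of −0.49 for cortex (adjusted p = 0.00486, limma) and 0.67 in the cerebellum (adjusted p = 0.00190, limma) and an interaction of −1.16 (standard error 0.14, adjusted p = 6.65e-04, limma). The hyaluronan synthases Has1 and Has3 did not pass in either region.

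For each list that follows, the shares of all genes called were 15.6% in the cortex and 5.36% in the cerebellum. Of 12 enzymes that build the chondroitin sulfate chain, Xylt1, which starts it, was lower in the cortex (LFC −0.57, standard error 0.12). Csgalnact1 (LFC −0.38, adjusted p = 0.0440, limma) and Chsy3 (LFC −1.36, adjusted p = 0.0140, limma) were lower in the cerebellum. Chsy3, which extends the chain, had 87.6, 31.8 and 52.4 normalized counts in WT cerebellum libraries 2, 4 and 6, again highest in library 2, and 15.8 to 24.4 in SCA1 KI libraries. Of 11 sulfate-modifying genes, Chst7 was lower in the cortex (LFC −0.62, standard error 0.17) and 0 passed in the cerebellum. Of 16 proteases and inhibitors, the lectican-cleaving Adamts1 (LFC −0.46), Adamts8 (−0.67) and the inhibitor Timp4 (−0.34) were lower in the cortex. Adamts20, of the same protease family, passed in neither region (LFC 0.42 for cortex and −0.48 for cerebellum) but did for the interaction (0.90, adjusted p = 0.0279, limma). The inhibitor Timp2 was lower in the cerebellum (LFC −0.86, adjusted p = 0.0163, limma). It had 8012, 4026 and 4779 normalized counts in WT libraries 2, 4 and 6, again highest in library 2. SCA1 KI libraries had 2709, 2746 and 3434. The cortical LFC of Timp2 was 0.41 (adjusted p = 0.156, limma) and the interaction passed (adjusted p = 0.0102, limma).

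Hapln4 had the smallest p of the 10 genes in both regions and for the interaction. After subtraction of the mean of each region, the profiles of Scrt1, Sema7a and Pamr1 over the 12 libraries were the most like that of Hapln4, with Pearson correlations of 0.989, 0.988 and 0.983 across libraries that share the 4 groups and their depths.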

How the data were processed

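Cortical and cerebellar poly-adenylated RNA was measured in 12 libraries, 3 per region and genotype. Per the labels and methods, the authors aligned paired-end reads with STAR to mm10, assigned them to genes (featureCounts) and scaled the counts in DESeq2. Versions, annotation and strand setting were not given in the sources used here. The deposited signal is a normalized count, that is reads over the size factor of each library, and 100% of the values were whole multiples of 1 read (tolerance 0.1), from which reads were recovered for count tests. Columns name region and genotype but carry no replicate number of the labels, and nothing states how the mice relate across regions.

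Entries averaging 10 or more normalized counts (15369 of 15759) entered a limma fit (version 3.58.1, R 4.3.3, with a mean trend), taking log2(normalized count + 1) of all 12 libraries with 4 group means, for the genotype difference by region, the region by genotype interaction (called on adjusted p under 0.05 alone) and WT cortex against WT cerebellum. The study used DESeq2. Adjusted p are Benjamini-Hochberg values over all tested genes. The pseudocount understates LFCs of low genes. Positions, exon lengths and GC content are from GENCODE vM21, which matched 15009 symbols. The p-values measure the spread between libraries, and intervals are those of the limma fit.

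The genes, the lists of related genes and the marker lists were chosen with earlier results of these data known. Named were the 10 genes, Atxn1, every called gene of 5 related lists, list members as stated, and the 3 genes most like the member with the smallest p. Other lists of markers (Purkinje cells, granule cells, cortical excitatory neurons, striatum, dentate gyrus, choroid plexus, microglia, endothelium and meningeal fibroblasts) were counted. In the cortex Calb1 and Car8 were lower and Slc1a6 was higher among Purkinje genes, and Slc17a7 and Cux2 were lower among cortical excitatory genes. In the cerebellum Tbr1 was higher and P2ry12 was lower. The remaining tested members of these 9 lists did not pass. Pou4f1, Tal1 and Shox2 were higher among thalamus and midbrain genes in the cortex, and 0 brainstem genes passed in either region.

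Alternatives were pseudocounts of 0.5 and 5, a minimum of 100 or none, separate fits by region, median centring by region, edgeR 4.0.16, DESeq2 1.42.0, other limits on the LFC, a correction of every library for transcript length and GC (14639 genes), and 12 fits that each left out 1 library. The fits were tested on simulated data.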

Additional observations from a re-analysis of the deposited data

Results flagged for a closer look

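The LFC of Hapln4 differed between the regions, as tested by the region by genotype interaction. The difference was −0.698 (standard error 0.097, adjusted p = 0.00112, limma), cortex minus cerebellum, with an interval (95%) of −0.91 to −0.49. Hapln4 was lower in 3 of 3 SCA1 KI libraries in each region. The interaction passed in all 12 fits that each left out 1 library, with values from −0.74 to −0.65, and in all 8 other fits that gave one. Single libraries in groups of 3 were not tested as outliers.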

How the results depend on the processing

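No paired analysis was possible because the columns of the table carry no replicate numbers of the labels. With a limit of 1 on the absolute LFC, 1 of the 10 genes passed in the cortex (Hapln4), 1 in the cerebellum (Acan) and 4 between the regions of WT mice, where 2.1%, 2.03% and 23.6% of all genes did. When 1 library at a time was omitted, the genes that passed numbered 3 to 6 in the cortex (5 with all libraries, 3 without SCA1 KI library A), 2 to 3 in the cerebellum, 8 to 9 between the regions of WT mice, and 1 to 2 for the interaction, where the added gene was Hapln2 without cortical WT library B and Acan without cerebellar WT library 4. Called genes of the related lists then numbered 8 to 14 in the cortex and 1 to 8 in the cerebellum. Of the LFCs of single members under the alternatives, 192 of 210 in the cortex, 207 of 210 in the cerebellum, and 198 of 200 both for the interaction and between the regions kept their side of the limits. In the cortex 9 lost and 9 gained a call, in the cerebellum 3 lost one, and no call changed sign. The cerebellar LFC of Bcan, which did not pass in any fit, was −0.03 and changed sign without WT library 2 (0.0189), without WT library 6 (0.0184) and with a correction for transcript length and GC (0.11). Among the gains in the cortex, Bcan passed with DESeq2 (adjusted p = 0.0339). Hapln4 passed between the regions of WT mice once values were corrected for transcript length and GC (LFC −0.28, adjusted p = 0.00342), and Acan without cerebellar WT library 4 (LFC −0.54, adjusted p = 0.0330). With that correction, the share of all called genes that were lower was 56.0% in place of 69.2% in the cortex and 52.3% in place of 82.9% in the cerebellum, and the members called were 4 in the cortex and 3 in the cerebellum, all lower, where 16% and 7.67% of all genes were called. The shallowest member was Acan, with 82.6 normalized counts in its lowest library, and 3 libraries a group limit the precision.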
